A study of Mus musculus with 31 samples.

Results

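Apoe, Trem2, Spp1, Gpnmb, Cd9, Fabp5, Lpl, Plin2, Lgals3 and Cd63 are genes of the program known as that of lipid-associated macrophages. They were chosen by symbol, though with earlier results of these data known, and all 10 were found among the 24411 entries of the gene count table. Their RNA was measured by bulk RNA-seq in 9 libraries of sorted Ly6C-high monocytes from C57BL/6J mice, 3 libraries in each of 3 groups. The group called healthy blood came from the blood of mice without a tumor. LLC blood came from the blood of mice that carried a subcutaneous tumor of LLC (Lewis lung carcinoma) cells, an established line of mouse lung cancer, and LLC tumor came from such tumors themselves. All 3 groups shared the sort gate, which took cells positive for CD11b, high for Ly6C and negative for Ly6G and MHC class II. The labels give no age or sex, do not say whether mice were pooled, and do not say whether blood and tumor were taken from the same mice.

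Macrophages that take up much lipid, in fat tissue, atherosclerotic plaques or tumors, are known to express these genes together. TREM2 is a surface receptor that binds lipids and apolipoproteins and signals through the adaptor TYROBP, and APOE is the apolipoprotein that such cells secrete to carry cholesterol away. LPL and FABP5 bring in fatty acids, PLIN2 coats the droplets in which they are stored, and GPNMB, CD63 and CD9 belong to lysosomes, late endosomes and the cell surface. SPP1 (osteopontin) and LGALS3 (galectin-3) are secreted proteins that bind integrins and sugars. Circulating monocytes are the blood cells from which many tumor macrophages arise.

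Levels are given as CPM, a gene's count divided by the library's total count and scaled alike in every library, and n = 3 for each mean ± SD. Totals ranged from 10457492 to 20706412 counts, and a level of 3 counts, taken as the floor of detection, corresponded to 0.145 to 0.287 CPM. The 10 genes held 0.263% to 0.284% of all counts in healthy blood, 0.182% to 0.186% in LLC blood and 0.576% to 0.761% in LLC tumor. Markers of Ly6C-high monocytes, 8 genes such as Ccr2 and Csf1r, summed to 12468 to 12575 CPM in healthy blood, 13982 to 15346 CPM in LLC blood and 16344 to 19586 CPM in LLC tumor, with none of the 8 at 0 in any group. LLC tumor 1 stood apart in its scaling factor (TMM 0.798, against 0.968 to 1.07 in the other 8 libraries), and LLC blood 1 stood apart in its fibroblast markers, described further on. In bulk libraries, fewer cells that express a gene and less RNA per cell cannot be told apart. The labels do not say that the 3 libraries of a group came from separate mice, so the p-values measure only the spread between these samples.

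Between healthy blood and LLC blood the members went different ways. Gpnmb rose, Apoe, Cd9 and Lpl fell, and 6 members were not called, where a call is an adjusted p under 0.05 in edgeR's quasi-likelihood test with Benjamini-Hochberg adjustment over 12337 genes. The 4 of 10 called compare with 23.6% of all genes tested, 14.0% higher and 9.61% lower. In LLC tumor against LLC blood, 8 of the 10 members rose and 0 fell, against 61.3% of all genes called, 29.6% higher and 31.7% lower. Against healthy blood, LLC tumor had 8 members higher and 1 lower, where 66.5% of all genes were called, 33.5% higher and 33.0% lower.

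The median log2 fold change of the 10 members was -0.27 in LLC blood against healthy blood, 2.02 in LLC tumor against LLC blood and 2.23 in LLC tumor against healthy blood. Over all genes tested those medians were -0.01, -0.03 and -0.00. The library values of the groups did not overlap for 6, 8 and 9 members in these comparisons, against 51.4%, 68.3% and 70.6% of all genes. At least a 2-fold change was called for 3, 8 and 8 members, against 6.23%, 28.7% and 32.3% of all genes. By direction these were 1 higher and 2 lower in LLC blood (3.24% and 2.99% of all genes), 8 higher in LLC tumor against LLC blood (17.3%), and 7 higher and 1 lower in LLC tumor against healthy blood (19.7% and 12.7%). Each group of libraries enters 2 of the 3 comparisons, so values of different comparisons are set side by side and are not independent. With library totals as the only scaling, which moved the median of all genes to -0.23 in LLC tumor against LLC blood and -0.17 against healthy blood, Trem2 and Fabp5 were called higher in LLC blood as well and the split there was 3 higher and 3 lower.

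**Figure D1:**
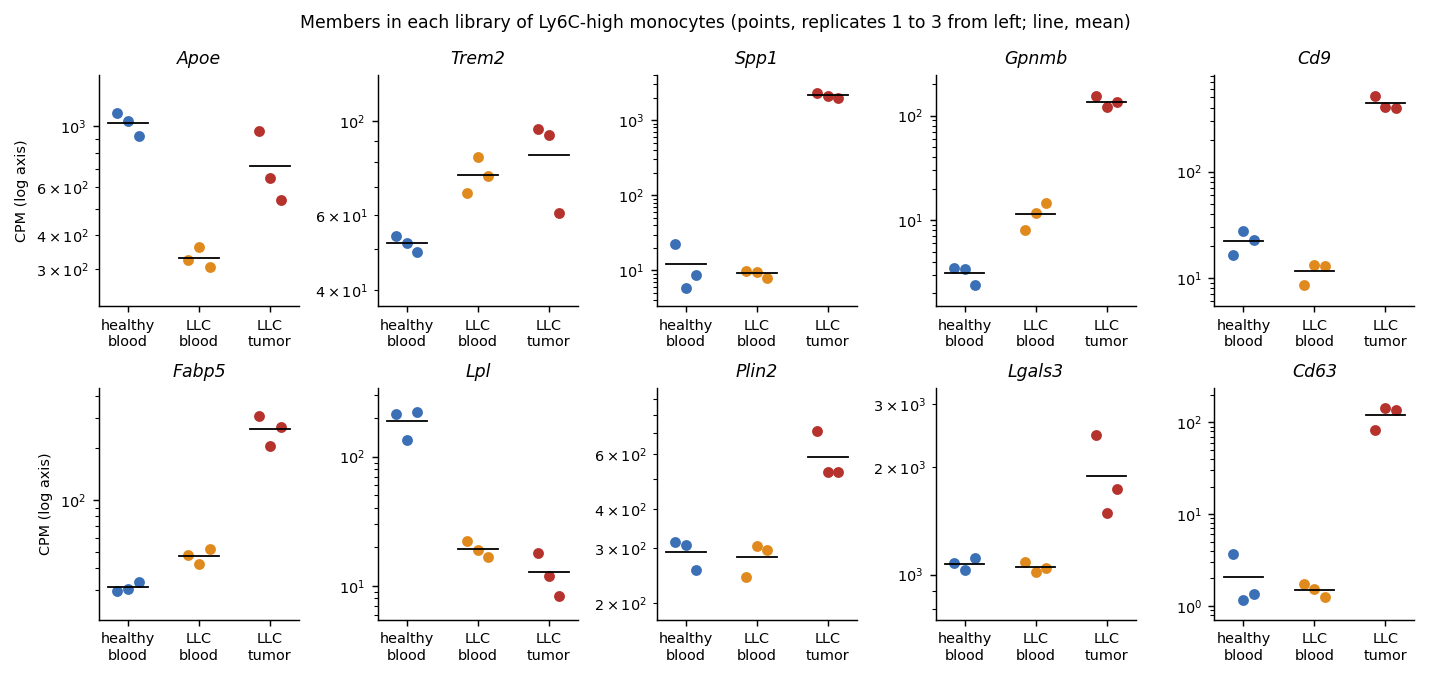
CPM of the 10 members in each of the 9 libraries, on log axes with a separate scale for each gene; points are replicates 1 to 3 from left to right and lines are group means. Spp1, Gpnmb, Cd9, Fabp5, Plin2, Lgals3 and Cd63 were highest in the 3 LLC tumor libraries, Lpl was highest in healthy blood and Apoe was lowest in LLC blood.

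**Figure D2:**
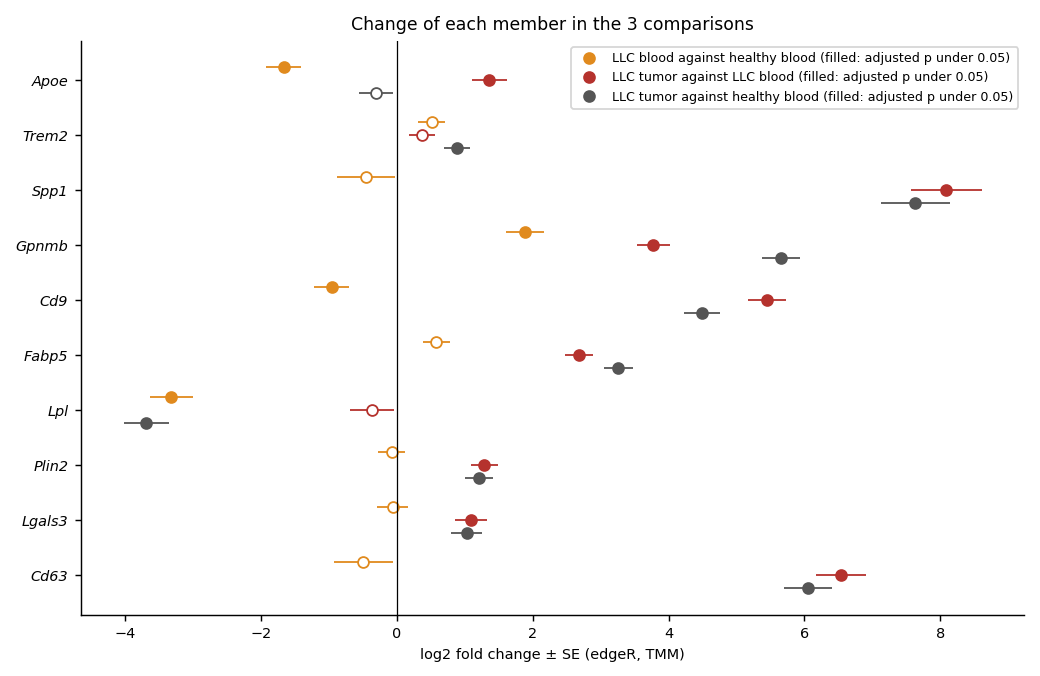
Log2 fold change of each member in the 3 comparisons, with bars of 1 SE from edgeR; filled points are called at an adjusted p under 0.05 and open points are not. Spp1, Cd63 and Cd9 had log2 fold changes of 8.09, 6.54 and 5.45 from LLC blood to LLC tumor, and Lpl lay at -3.32 and -3.69 relative to healthy blood in LLC blood and LLC tumor.

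Apoe (ENSMUSG00000002985, chr7:19696244-19701310 in GRCm38.p6) fell in blood and rose in the tumor. Apoe was at 1113, 1041 and 923 CPM in healthy blood 1 to 3, at 325, 361 and 305 CPM in LLC blood 1 to 3 and at 964, 646 and 537 CPM in LLC tumor 1 to 3. Every LLC blood library lay below all the others, while the highest LLC tumor library reached into the range of healthy blood. The fall in LLC blood was 3.17-fold (2.65 to 3.79 at 1 SE) (log2 fold change -1.66 with SE 0.26 and adjusted p 0.00229), and the rise from LLC blood to LLC tumor was 2.57-fold (2.15 to 3.06 at 1 SE) (log2 fold change 1.36 with SE 0.26 and adjusted p 0.00128). The order of the group means was therefore healthy blood (1026 ± 96.1 CPM, SD), LLC tumor (716 ± 222 CPM) and LLC blood (330.1 ± 28.3 CPM). Dendritic cell markers had their lowest sum in LLC blood (132 to 146, 57.1 to 84.7 and 124 to 230.2 CPM over the 3 groups). In LLC tumor most of that sum was Itgax (176 ± 56.0 CPM), which macrophages also express. Of 7 markers tested, 2 were higher and 2 lower in LLC tumor than in LLC blood. Flt3 (36.3, 22.4 and 2.83 CPM over the 3 groups), named after its values were seen, was lowest in LLC tumor. The part of dendritic cells in the changes of Apoe was not tested. The difference between the neighbours in this order, healthy blood and LLC tumor, was not called (log2 fold change -0.30 with SE 0.25 and adjusted p 0.307). That comparison rested on LLC tumor 1: without it the log2 fold change was -0.75 (adjusted p 0.000209), and with library totals only it was -0.52 (adjusted p 0.0320), both of them calls.

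Apoe shares its stretch of chromosome 7 with the genes of other small apolipoproteins. Apoc1, whose product inhibits lipid uptake through APOE receptors, lies 3585 bases away at chr7:19689480-19692659, and Apoc2, which encodes the activator of LPL, lies 18303 bases away at chr7:19671579-19677941. Apoc1 was at 6.14 ± 0.488, 3.64 ± 0.771 and 1.38 ± 0.125 CPM across healthy blood, LLC blood and LLC tumor. It fell from LLC blood to LLC tumor (log2 fold change -1.17 with SE 0.25 and adjusted p 0.00291), where Apoe rose. Its call in LLC blood against healthy blood (log2 fold change -0.79 with SE 0.23 and adjusted p 0.0365) was lost in 7 of the 9 fits that left out a library (-0.89 to -0.61), those without any single blood library or without LLC tumor 3, and with no filter on low counts (-0.79, adjusted p 0.0673). Apoc2 was at 84.7 ± 8.55, 55.9 ± 4.94 and 43.6 ± 15.4 CPM, with a log2 fold change of -0.12 with SE 0.27 and adjusted p 0.724 from LLC blood to LLC tumor. Without LLC tumor 1, Apoc2 was called in that comparison (-0.56, adjusted p 0.00138) and in LLC blood against healthy blood (-0.68, adjusted p 0.000599), where the 9 libraries gave -0.63 with SE 0.26 and adjusted p 0.117.

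The genes that handle APOE particles were 18 receptors, exporters, sensors and apolipoproteins, of which 16 were tested. In LLC blood against healthy blood 5 were higher and 3 lower, and in LLC tumor against LLC blood 7 were higher and 5 lower. For this and every other list, the shares of all genes were 14.0% higher and 9.61% lower in the first comparison. In the second comparison they were 29.6% higher and 31.7% lower. The median log2 fold changes of the 16 genes were 0.00 and 0.25. Upper-quartile scaling gave 4 higher and 5 lower in LLC blood, and library totals gave 5 higher and 6 lower in LLC tumor. Lrp1, a large endocytic receptor for APOE, rose in LLC blood from 1229 ± 79.2 to 2996 ± 132 CPM (log2 fold change 1.26 with SE 0.10 and adjusted p 0.000100) and stood at 3115 ± 449 CPM in LLC tumor. Sorl1, a sorting receptor that binds APOE, rose in LLC blood from 246 ± 18.9 to 749 ± 62.9 CPM (log2 fold change 1.58 with SE 0.10 and adjusted p 2.57e-05), while Apoe itself fell there. In LLC tumor Sorl1 fell to 343 ± 39.0 CPM (log2 fold change -0.93 with SE 0.10 and adjusted p 3.39e-05 against LLC blood). In LLC tumor Abca1, the pump that loads cholesterol onto apolipoproteins, rose from 8.83 ± 1.20 to 465 ± 52.6 CPM (log2 fold change 5.94 with SE 0.22 and adjusted p 1.6e-07). Pltp, which encodes the phospholipid transfer protein, also rose in LLC tumor (log2 fold change 1.51 with SE 0.28 and adjusted p 0.00129). Sort1, a sorting receptor, and Scarb1, the HDL receptor, fell in LLC tumor with log2 fold changes of -2.64 and -1.82. Abcg1, which exports cholesterol to HDL, had a log2 fold change of 0.63 with SE 0.26 and adjusted p 0.0611 in LLC tumor against LLC blood, which was called without LLC tumor 2 (0.85, adjusted p 0.0109), with RLE factors (0.69, adjusted p 0.0449) and in DESeq2 (0.68, adjusted p 0.0228).

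**Figure D3:**
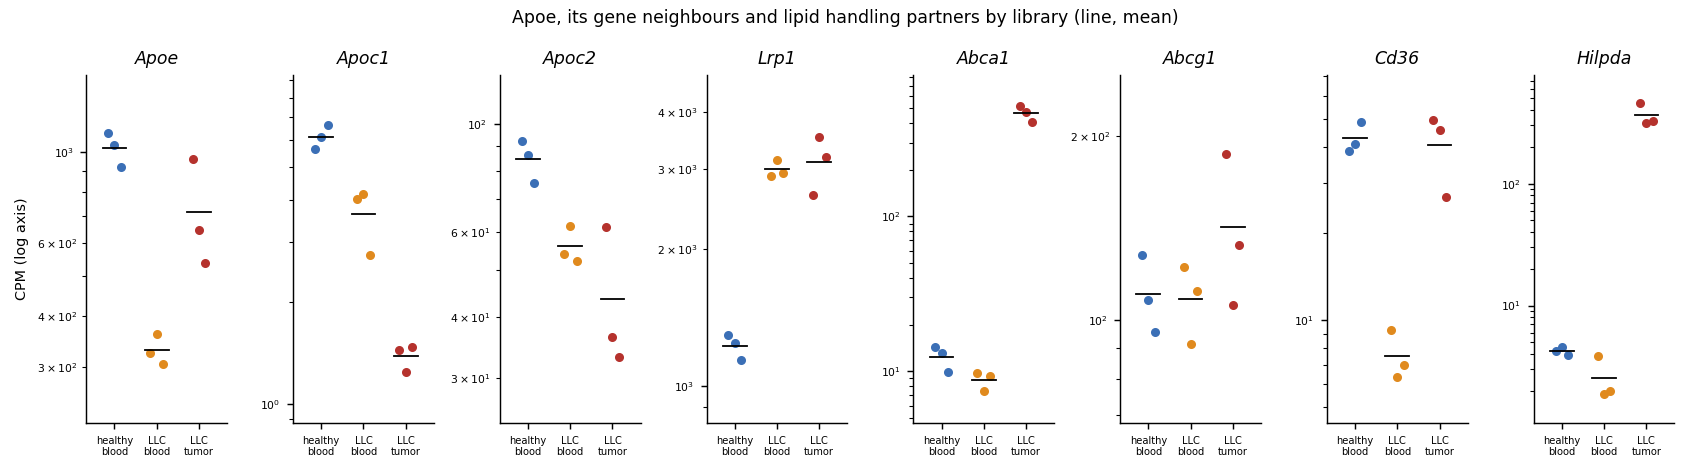
CPM by library, on log axes, of Apoe, its neighbours Apoc1 and Apoc2, the receptor Lrp1, the exporters Abca1 and Abcg1, the fatty acid receptor Cd36 and the droplet gene Hilpda; lines are group means. Apoe and Cd36 were lowest in LLC blood, Lrp1 was lowest in healthy blood, and Abca1 and Hilpda were highest in LLC tumor.

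The genes whose log2(CPM + 1) ran most like that of Apoe over the 9 libraries, among the 6894 genes that averaged 20 CPM or more, were Ssr4, Gng5, Il15, Pgap2 and Chic2, with Pearson correlations of 0.973, 0.966, 0.961, 0.961 and 0.959. The 9 points fall into 3 groups and share their depth and scaling, so these values only describe a shape. The 5 genes were picked for this shape, so their directions followed from the choice. All were called lower in LLC blood against healthy blood (9.61% of all genes) and higher in LLC tumor than in LLC blood (29.6%). Their log2 fold changes were smaller in size than those of Apoe: Il15, a cytokine, had -0.85 and 0.70, and Gng5, a G protein subunit, had -0.61 and 0.62. Among the members, the profile most like Apoe was that of Lpl (r = 0.651).

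Lpl (ENSMUSG00000015568, chr8:68880555-68906932), the lipase that frees fatty acids from triglyceride-rich lipoproteins, fell in blood and was low in the tumor as well. Lpl was at 212, 134 and 222 CPM in healthy blood 1 to 3, at 22.4, 19.0 and 16.9 CPM in LLC blood 1 to 3 and at 18.0, 12.0 and 8.38 CPM in LLC tumor 1 to 3. All healthy blood libraries lay far above the other 6, and LLC blood and LLC tumor overlapped. The fall in LLC blood was 9.98-fold (8.0 to 12.5 at 1 SE) (log2 fold change -3.32 with SE 0.32 and adjusted p 0.000219), which placed Lpl as number 73 of 12337 genes from the lowest. LLC tumor was 12.9-fold (10.2 to 16.2 at 1 SE) below healthy blood (log2 fold change -3.69 with SE 0.33 and adjusted p 1.16e-05), and its difference from LLC blood was not called (log2 fold change -0.37 with SE 0.33 and adjusted p 0.350). Without LLC tumor 1, Lpl was called lower in LLC tumor than in LLC blood (-0.79, adjusted p 0.0308).

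Markers of lymphocytes were highest in healthy blood, as Lpl was. The 9 markers of T, NK and B cells summed to 64.0 to 209 CPM in healthy blood, 9.27 to 15.8 CPM in LLC blood and 0.432 to 2.84 CPM in LLC tumor, with the B cell genes Cd79a and Ms4a1 at 0 in the tumor. Healthy blood 2, with the highest of these sums, had the lowest Lpl of its group. The 8 dendritic cell markers had the sums given beside Apoe, with 0 called higher and 5 lower of 7 tested in LLC blood against healthy blood and 2 higher and 2 lower in LLC tumor against LLC blood. Members of the list, named after their values were seen, went different ways in the tumor: Cd209a was at 34.7 ± 6.64, 3.97 ± 2.78 and 0.385 ± 0.230 CPM, and Itgax, which macrophages also express, was at 54.9 ± 8.10, 40.1 ± 6.82 and 176 ± 56.0 CPM. The dendritic cell sum, most of which was Itgax in LLC tumor, was lowest in LLC blood, where Apoe and Cd36 were lowest as well. The part of lymphocytes and dendritic cells in the changes of Lpl and Cd36 was not tested. The 5 adipocyte markers, of a cell type with much Lpl, were at or under the floor in the blood of tumor-bearing mice and in tumors, and summed to no more than 0.307 CPM in healthy blood and 0.620 CPM in LLC tumor.

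Of 9 genes that regulate LPL or take up its products, 4 were expressed enough to be tested. Of these, 1 was higher and 1 lower in LLC blood against healthy blood (14.0% and 9.61% of all genes). In LLC tumor against LLC blood 2 were higher and 1 lower (29.6% and 31.7% of all genes). The median log2 fold changes were 0.10 and 1.25. Cd36, a receptor for fatty acids and oxidized lipoproteins, was at 42.7 ± 5.35, 7.55 ± 1.53 and 40.5 ± 12.1 CPM across healthy blood, LLC blood and LLC tumor. It fell in LLC blood (log2 fold change -2.54 with SE 0.28 and adjusted p 0.000413) and rose from there to LLC tumor (log2 fold change 2.66 with SE 0.28 and adjusted p 3.63e-05). Unlike Lpl, Cd36 in LLC tumor overlapped with its level in healthy blood (log2 fold change 0.12 with SE 0.25 and adjusted p 0.694). Angptl4, an inhibitor of LPL, rose from 0.991 ± 0.464 to 5.68 ± 3.61 CPM in LLC tumor (log2 fold change 2.61 with SE 0.58 and adjusted p 0.00323). Lmf1, needed for LPL to fold, fell there (log2 fold change -0.51 with SE 0.15 and adjusted p 0.0159). Gpihbp1, which holds LPL on capillary walls, was not tested, with means of 0, 0.0319 and 0.323 CPM.

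Trem2 (ENSMUSG00000023992, chr17:48346401-48352276), the lipid receptor that gives the program its usual marker, was called higher in LLC tumor than in healthy blood. Trem2 was at 53.6, 51.7 and 49.2 CPM in healthy blood 1 to 3, at 67.5, 82.4 and 74.3 CPM in LLC blood 1 to 3 and at 95.8, 93.0 and 60.6 CPM in LLC tumor 1 to 3. All healthy blood libraries were the lowest, and LLC tumor 3 lay below all 3 LLC blood libraries. LLC tumor was 1.84-fold (1.61 to 2.11 at 1 SE) above healthy blood (log2 fold change 0.88 with SE 0.19 and adjusted p 0.00300). The steps between neighbouring groups were not called, with log2 fold changes of 0.51 with SE 0.19 and adjusted p 0.0872 in LLC blood against healthy blood and 0.37 with SE 0.19 and adjusted p 0.122 in LLC tumor against LLC blood. The first of these was called without LLC tumor 1 (0.46, adjusted p 0.0238) or LLC tumor 3 (0.51, adjusted p 0.0149), and the second without LLC tumor 3 (0.59, adjusted p 0.00384). For comparison, Gpnmb rose at both steps in the same libraries.

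Among the members' promoters matched in RefSeq (8 of 10; Fabp5 and Lpl were not matched), that of Trem2 held the most of the 3 motifs looked for on both strands in the 250 bases before the start. The first was TGANTCA, with any base as N, a loose form of the AP-1 site (present in 6.87% of 27025 RefSeq promoter windows of that length). The others were CACGTG (the E-box of MITF and TFE factors, 6.05%) and AGGTCA (the half-site of nuclear receptors, 13.8%). The Trem2 window, chr17:48346151-48346400 on the plus strand of GRCm38.p6, is shown because it holds 2 of the 3, in capitals: TGAATCA beginning 9 bases before the start, and TGACCT, which is AGGTCA read on the other strand, beginning 68 bases before it. The Plin2 window held a half-site beginning 218 bases before its start, and the windows of the other 6 matched members held none of the motifs. The matches in the Trem2 window do not overlap and are descriptions of the letters, not of binding.
Trem2: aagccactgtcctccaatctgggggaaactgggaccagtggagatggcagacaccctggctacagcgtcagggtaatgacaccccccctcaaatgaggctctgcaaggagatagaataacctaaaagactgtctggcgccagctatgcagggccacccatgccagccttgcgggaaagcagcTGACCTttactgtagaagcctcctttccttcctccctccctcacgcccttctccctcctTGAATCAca

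The 14 genes of TREM2 signalling, all tested, had 1 member higher and 2 lower in LLC blood against healthy blood (14.0% and 9.61% of all genes). In LLC tumor against LLC blood 5 were higher and 5 lower (29.6% and 31.7% of all genes). The medians were 0.12 and -0.31. With library totals only, the counts were 5 higher and 3 lower in LLC blood and 5 higher and 9 lower in LLC tumor. Tyrobp, the adaptor through which TREM2 signals, was at 1513 ± 28.4, 1079 ± 94.8 and 750.3 ± 155 CPM. It was lower in LLC tumor than in healthy blood (log2 fold change -0.81 with SE 0.20 and adjusted p 0.00630), where Trem2 was higher. Its changes over the single steps were not called (log2 fold changes -0.51 with SE 0.20 and adjusted p 0.0982, and -0.29 with SE 0.20 and adjusted p 0.235), but both were without LLC tumor 1 (-0.56 and -0.57), and the first also without LLC tumor 2 (-0.51). Downstream of the adaptor, Plcg2, a phospholipase, fell from 616 ± 11.9 to 229 ± 5.68 CPM in LLC tumor (log2 fold change -1.22 with SE 0.10 and adjusted p 8e-06). Pik3cd, a catalytic subunit of PI 3-kinase, and Ptpn6, the phosphatase SHP-1, fell as well, with log2 fold changes of -1.36 and -1.28. Lat2, an adaptor, rose (log2 fold change 0.59 with SE 0.17 and adjusted p 0.0143), a call that was lost without LLC blood 2 (0.49, adjusted p 0.0623). The kinase Syk had a log2 fold change of -0.32 with SE 0.14 and adjusted p 0.0802, called without LLC tumor 1 (-0.46).

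Spp1 (ENSMUSG00000029304, chr5:104435111-104441053), which encodes the secreted matrix protein osteopontin, made the largest change of the 10 members. Spp1 was at 22.7, 5.84 and 8.58 CPM in healthy blood 1 to 3, at 9.75, 9.68 and 8.07 CPM in LLC blood 1 to 3 and at 2309.9, 2129 and 1981 CPM in LLC tumor 1 to 3. The 3 LLC tumor libraries were close to each other and far above all 6 blood libraries, which overlapped. From LLC blood to LLC tumor Spp1 rose 272-fold (190.1 to 390.1 at 1 SE) (log2 fold change 8.09 with SE 0.52 and adjusted p 1.69e-06), number 124 of 12337 genes from the highest. Relative to healthy blood the rise was 198-fold (139.8 to 282 at 1 SE) (log2 fold change 7.63 with SE 0.51 and adjusted p 1.73e-06), and without healthy blood 1, the highest of its group, the log2 fold change was 8.39. The difference between the blood groups was not called (log2 fold change -0.46 with SE 0.43 and adjusted p 0.480), and the sign there turned without healthy blood 1 (0.31).

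Of 9 genes for receptors of osteopontin, 2 were higher and 2 lower in LLC blood against healthy blood (14.0% and 9.61% of all genes). In LLC tumor against LLC blood 6 were higher and 2 lower (29.6% and 31.7% of all genes). The medians were 0.12 and 0.49. Cd44, which binds osteopontin and hyaluronan, rose from 967 ± 42.0 to 1573 ± 274 CPM in LLC tumor (log2 fold change 0.93 with SE 0.18 and adjusted p 0.00176). The integrin chains Itgb5 and Itga5 rose by similar amounts, with log2 fold changes of 0.95 and 0.94. Itga4, the alpha chain used by circulating monocytes to stick to vessel walls, fell from 1415 ± 148 to 182 ± 18.6 CPM (log2 fold change -2.76 with SE 0.11 and adjusted p 2.08e-07). Itgb3, which pairs with the alpha V chain, fell at both steps, from 29.9 ± 5.04 to 15.2 ± 2.31 and 5.85 ± 1.41 CPM (log2 fold changes -1.01 with SE 0.16 and adjusted p 0.00285, and -1.18 with SE 0.18 and adjusted p 0.000355).

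Cd63 (ENSMUSG00000025351, chr10:128896231-128912822), a tetraspanin of late endosomes and lysosomes, followed Spp1 most closely (r = 0.995 over the 9 libraries, as a description). Cd63 was at 3.72, 1.17 and 1.35 CPM in healthy blood 1 to 3, at 1.72, 1.52 and 1.26 CPM in LLC blood 1 to 3 and at 83.0, 144 and 138 CPM in LLC tumor 1 to 3. It was within a few CPM in all blood libraries and high in all tumor libraries, with LLC tumor 1 the lowest of the 3. Cd63 rose 93.3-fold (72.4 to 120.2 at 1 SE) from LLC blood to LLC tumor (log2 fold change 6.54 with SE 0.37 and adjusted p 8.03e-07) and 66.2-fold (52.0 to 84.4 at 1 SE) relative to healthy blood (log2 fold change 6.05 with SE 0.35 and adjusted p 8.16e-07), or 6.72 without healthy blood 1. In LLC blood against healthy blood it was not called (log2 fold change -0.49 with SE 0.43 and adjusted p 0.450, and 0.19 without healthy blood 1).

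Cd9 (ENSMUSG00000030342, chr6:125460266-125494760), a tetraspanin of the plasma membrane, fell in blood before it rose in the tumor. Cd9 was at 16.6, 27.9 and 22.6 CPM in healthy blood 1 to 3, at 8.61, 13.3 and 12.9 CPM in LLC blood 1 to 3 and at 515, 405 and 401 CPM in LLC tumor 1 to 3. The 3 groups did not overlap, with LLC blood the lowest. The fall in LLC blood was 1.94-fold (1.62 to 2.32 at 1 SE) (log2 fold change -0.96 with SE 0.26 and adjusted p 0.0259), a call that was lost without healthy blood 2 or 3 or any of the LLC blood libraries (-1.05 to -0.79, adjusted p 0.0604 to 0.0755). The rise from LLC blood to LLC tumor was 43.8-fold (36.0 to 53.3 at 1 SE) (log2 fold change 5.45 with SE 0.28 and adjusted p 5.63e-07), and LLC tumor stood 22.5-fold (18.7 to 27.1 at 1 SE) above healthy blood (log2 fold change 4.49 with SE 0.27 and adjusted p 9.34e-07).

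Of 12 other tetraspanin genes, 11 were tested, with 0 higher and 1 lower in LLC blood against healthy blood (14.0% and 9.61% of all genes). In LLC tumor against LLC blood 6 were higher and 4 lower (29.6% and 31.7% of all genes). The medians were -0.05 and 0.37. Cd81, a partner of CD9 at the cell surface, rose from 4.87 ± 0.676 to 59.7 ± 21 CPM in LLC tumor (log2 fold change 3.80 with SE 0.32 and adjusted p 9.68e-06). Tspan3 rose from 18.6 ± 0.937 to 103 ± 12.6 CPM (log2 fold change 2.66 with SE 0.09 and adjusted p 1.23e-07), and Cd53, a tetraspanin of leukocytes, had a log2 fold change of 1.12 with SE 0.21 and adjusted p 0.00143. Tspan13 fell there (log2 fold change -1.38 with SE 0.18 and adjusted p 0.000143).

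Gpnmb (ENSMUSG00000029816, chr6:49036518-49058182), a glycoprotein of lysosomes and melanosomes, was called higher at both steps. Gpnmb was at 3.50, 3.38 and 2.39 CPM in healthy blood 1 to 3, at 8.13, 11.7 and 14.4 CPM in LLC blood 1 to 3 and at 154, 120.5 and 135 CPM in LLC tumor 1 to 3. The 3 groups did not overlap and were ordered healthy blood, LLC blood, LLC tumor. The rise in LLC blood was 3.69-fold (3.05 to 4.47 at 1 SE) (log2 fold change 1.88 with SE 0.27 and adjusted p 0.00171), and the rise from LLC blood to LLC tumor was 13.7-fold (11.5 to 16.2 at 1 SE) (log2 fold change 3.78 with SE 0.25 and adjusted p 1.91e-06). Between healthy blood and LLC tumor the change was 50.6-fold (41.6 to 61.4 at 1 SE) (log2 fold change 5.66 with SE 0.28 and adjusted p 3.8e-07).

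Gpnmb is a known target of the MiT/TFE factors, which drive genes of lysosomes. Of 9 genes for these factors and their regulators, 3 were higher and 0 lower in LLC blood against healthy blood (14.0% and 9.61% of all genes). In LLC tumor against LLC blood 6 were higher and 1 lower (29.6% and 31.7% of all genes). The medians were 0.15 and 0.81. Tfec, a factor of this family found in macrophages, rose at both steps, from 15.2 ± 2.23 to 32.2 ± 6.38 and 57.8 ± 6.17 CPM (log2 fold changes 1.06 with SE 0.19 and adjusted p 0.00412, and 1.05 with SE 0.18 and adjusted p 0.000814). Fnip2, a folliculin partner that controls where the factors reside, also rose at both, with log2 fold changes of 0.89 with SE 0.14 and adjusted p 0.00278, and 1.74 with SE 0.14 and adjusted p 8.1e-06. Mitf rose in LLC tumor (log2 fold change 1.13 with SE 0.17 and adjusted p 0.000278) and Tfeb fell (log2 fold change -0.86 with SE 0.17 and adjusted p 0.00192). Tfe3 had a log2 fold change of 0.15 with SE 0.08 and adjusted p 0.144, which had the opposite sign with library totals only (-0.05).

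The promoter windows of Spp1, Gpnmb and Cd9, 3 of the 4 members that were at least 10-fold higher in LLC tumor than in LLC blood, held none of the 3 motifs on either strand. They are shown as the 250 bases before the RefSeq start in GRCm38.p6, so that the letters can be read beside the Trem2 window. The Spp1 window is chr5:104434861-104435110 on the plus strand (a second RefSeq start of Spp1 is not shown), the Gpnmb window is chr6:49036268-49036517 on the plus strand, and the Cd9 window is chr6:125494761-125495010 on the minus strand. Their G and C content was 43.6%, 47.2% and 61.6%. That none of the motifs was found says only that these letters are not in these windows.
Spp1: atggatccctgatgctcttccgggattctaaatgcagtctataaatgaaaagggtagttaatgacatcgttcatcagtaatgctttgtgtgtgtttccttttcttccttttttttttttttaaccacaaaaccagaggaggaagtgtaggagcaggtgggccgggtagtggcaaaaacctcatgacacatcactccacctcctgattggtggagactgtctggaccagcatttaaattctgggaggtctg
Gpnmb: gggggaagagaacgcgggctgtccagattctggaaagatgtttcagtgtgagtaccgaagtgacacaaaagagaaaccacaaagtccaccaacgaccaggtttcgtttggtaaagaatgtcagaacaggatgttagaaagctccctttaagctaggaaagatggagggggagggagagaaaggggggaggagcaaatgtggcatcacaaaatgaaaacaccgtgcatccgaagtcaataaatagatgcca
Cd9: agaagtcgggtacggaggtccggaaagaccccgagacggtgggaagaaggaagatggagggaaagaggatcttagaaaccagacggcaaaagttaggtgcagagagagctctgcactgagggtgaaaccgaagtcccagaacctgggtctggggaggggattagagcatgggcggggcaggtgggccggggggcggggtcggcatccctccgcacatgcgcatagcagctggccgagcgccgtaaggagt

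Fabp5 (ENSMUSG00000027533, chr3:10012585-10016610), a carrier of fatty acids in the cytosol, rose in the tumor. Fabp5 was at 29.4, 30.5 and 33.2 CPM in healthy blood 1 to 3, at 47.6, 42.3 and 52.0 CPM in LLC blood 1 to 3 and at 306, 205 and 265 CPM in LLC tumor 1 to 3. The 3 groups did not overlap and were ordered healthy blood, LLC blood, LLC tumor. From LLC blood to LLC tumor Fabp5 rose 6.38-fold (5.53 to 7.37 at 1 SE) (log2 fold change 2.67 with SE 0.21 and adjusted p 5.12e-06), and relative to healthy blood 9.56-fold (8.26 to 11.1 at 1 SE) (log2 fold change 3.26 with SE 0.21 and adjusted p 1.58e-06). In LLC blood against healthy blood the log2 fold change of 0.58 with SE 0.20 and adjusted p 0.0656 was not called, but it was called under 9 of 20 alternatives, among them without LLC tumor 1 (0.53, adjusted p 0.00862) or LLC tumor 2 (0.58, adjusted p 0.0173). Of 6 other fatty acid binding protein genes, 2 were tested. Fabp4, the form of adipocytes and macrophages, was at 6.12 ± 1.78, 1.78 ± 0.934 and 1.94 ± 0.718 CPM and fell in LLC blood (log2 fold change -1.85 with SE 0.43 and adjusted p 0.0136), which was no longer called without healthy blood 3, LLC blood 2 or LLC blood 3 (-1.80 to -1.5). In LLC tumor against LLC blood Fabp4 was not called (log2 fold change 0.35 with SE 0.44 and adjusted p 0.510).

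Plin2 (ENSMUSG00000028494, chr4:86626910-86670217), the coat protein of lipid droplets, rose in the tumor. Plin2 was at 314, 307 and 255 CPM in healthy blood 1 to 3, at 243, 305 and 296 CPM in LLC blood 1 to 3 and at 712, 525 and 525 CPM in LLC tumor 1 to 3. All LLC tumor libraries lay above all blood libraries, and the blood groups overlapped. Plin2 rose 2.44-fold (2.12 to 2.81 at 1 SE) from LLC blood to LLC tumor (log2 fold change 1.29 with SE 0.20 and adjusted p 0.000439) and 2.31-fold (2.01 to 2.66 at 1 SE) relative to healthy blood (log2 fold change 1.21 with SE 0.20 and adjusted p 0.000571). In LLC blood against healthy blood its log2 fold change was -0.08 with SE 0.20 and adjusted p 0.814.

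Of 21 other genes of droplet building and breakdown, 14 were tested. In LLC blood against healthy blood 3 were higher and 0 lower (14.0% and 9.61% of all genes). In LLC tumor against LLC blood 6 were higher and 4 lower (29.6% and 31.7% of all genes). The medians were 0.19 and 0.16, the second of which was -0.04 with library totals only. Hilpda, an inhibitor of the main droplet lipase, rose from 2.56 ± 1.10 to 367 ± 79.2 CPM in LLC tumor (log2 fold change 7.47 with SE 0.33 and adjusted p 2.99e-07). The lipase itself, Pnpla2, fell from 97.0 ± 6.80 to 50.0 ± 1.57 CPM (log2 fold change -0.75 with SE 0.12 and adjusted p 0.000408), and Lipe, the next lipase of the pathway, fell as well (log2 fold change -1.37 with SE 0.11 and adjusted p 7.84e-06). Dgat1, which makes triglycerides, rose from 20 ± 0.391 to 41.0 ± 3.42 CPM (log2 fold change 1.23 with SE 0.09 and adjusted p 4.13e-06). Dgat2 and Soat1, which make triglycerides and cholesterol esters, had log2 fold changes of 0.19 with SE 0.22 and adjusted p 0.483, and 0.13 with SE 0.12 and adjusted p 0.367. Acsl1, which activates fatty acids, fell in LLC tumor (log2 fold change -1.41 with SE 0.08 and adjusted p 1.04e-06). Cidec, a droplet gene of adipocytes, was at or under the floor in every group and was not tested.

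Lgals3 (ENSMUSG00000050335, chr14:47373860-47386167), which encodes galectin-3, had the smallest change among the 8 members that rose in the tumor. Lgals3 was at 1075, 1029.9 and 1115 CPM in healthy blood 1 to 3, at 1083, 1016 and 1043 CPM in LLC blood 1 to 3 and at 2455, 1483 and 1737 CPM in LLC tumor 1 to 3. The 6 blood libraries spanned a narrow range, and every LLC tumor library lay above it, LLC tumor 1 the most. Lgals3 rose 2.13-fold (1.82 to 2.50 at 1 SE) from LLC blood to LLC tumor (log2 fold change 1.09 with SE 0.23 and adjusted p 0.00257) and 2.04-fold (1.74 to 2.40 at 1 SE) relative to healthy blood (log2 fold change 1.03 with SE 0.23 and adjusted p 0.00324). The log2 fold change in LLC blood against healthy blood was -0.06 with SE 0.23 and adjusted p 0.873. Among 8 genes for other galectins and the galectin-3 binding protein, 5 were tested, with 0 called in LLC blood against healthy blood and 2 higher in LLC tumor against LLC blood. Lgals1 rose from 254 ± 2.92 to 587 ± 26.7 CPM (log2 fold change 1.41 with SE 0.12 and adjusted p 8.1e-06), and Lgals8 rose from 93.4 ± 8.33 to 156 ± 4.6 CPM (log2 fold change 0.95 with SE 0.11 and adjusted p 4.92e-05). Lgals3bp, the binding protein, had a log2 fold change of -0.24 with SE 0.26 and adjusted p 0.434, and it was called lower without LLC tumor 1 (-0.57, adjusted p 0.0253).

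A further 25 genes known from lipid-associated macrophages, mostly of lysosomes, were all tested. In LLC blood against healthy blood 2 were higher and 0 lower (14.0% and 9.61% of all genes). In LLC tumor against LLC blood 15 were higher and 5 lower (29.6% and 31.7% of all genes). The medians were -0.02 and 0.82. Mmp12, the macrophage elastase, rose from 1.5 ± 0.548 to 533 ± 66.2 CPM in LLC tumor (log2 fold change 8.72 with SE 0.52 and adjusted p 1.07e-06). Ctsl, a lysosomal protease, rose at both steps, from 38.7 ± 0.865 to 66.7 ± 13.7 and 1101 ± 167 CPM (log2 fold changes 0.76 with SE 0.14 and adjusted p 0.00483, and 4.23 with SE 0.15 and adjusted p 1.44e-07). Emp1, a membrane protein, rose from 28.1 ± 10.3 to 1181 ± 187 CPM in LLC tumor (log2 fold change 5.61 with SE 0.34 and adjusted p 1.21e-06). Among those that fell in LLC tumor, Lipa, the acid lipase of lysosomes, and Psap, the precursor of the saposins, named after their values were seen, had log2 fold changes of -1.11 and -0.58.

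**Figure D4:**
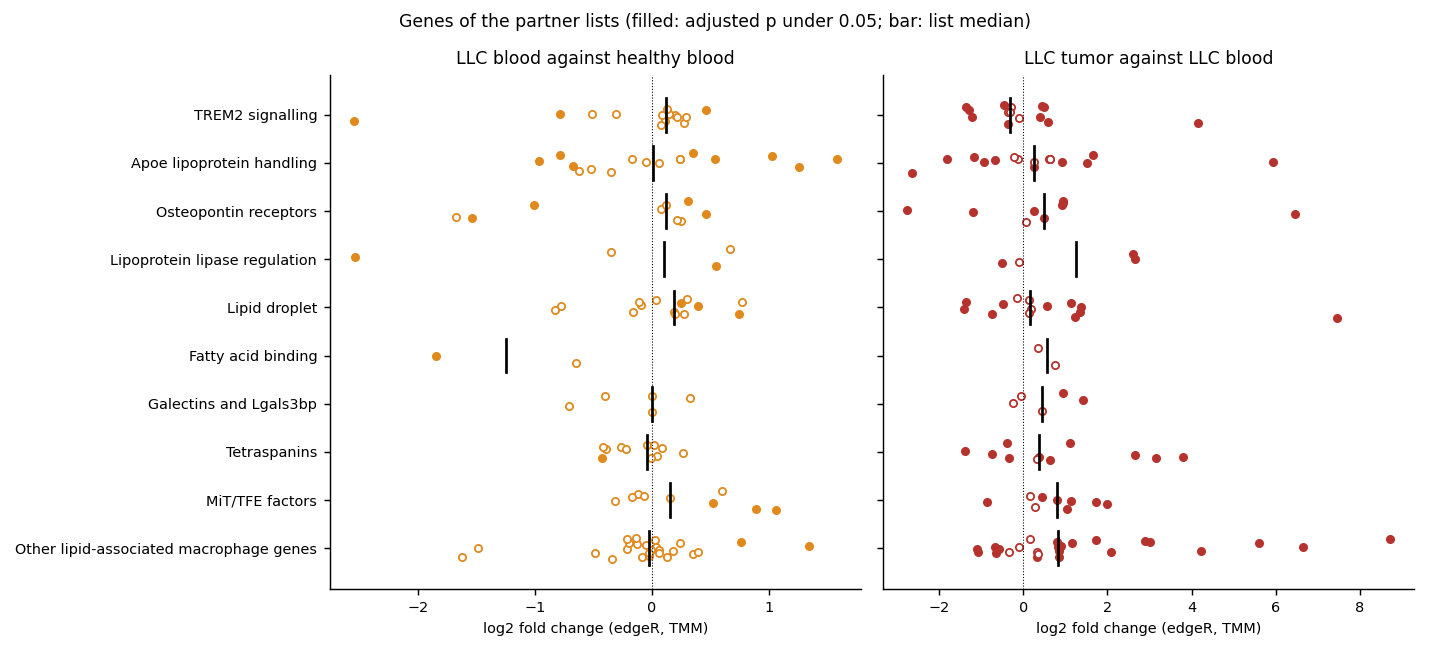
Log2 fold changes of the tested genes of 10 partner lists in LLC blood against healthy blood (left) and LLC tumor against LLC blood (right); each point is a gene, filled where called, and the black bar is the list's median. The other lipid-associated macrophage genes had a median of 0.82 on the right and -0.02 on the left.

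Across the 9 libraries, Spp1, Gpnmb, Cd9, Fabp5, Plin2, Lgals3 and Cd63 ran together, with pairwise Pearson correlations of log2(CPM + 1) between 0.856 and 0.995. Apoe correlated with these 7 at -0.111 to 0.326, Trem2 at 0.452 to 0.722 and Lpl at -0.818 to -0.479. The values describe 9 points in 3 groups, with the tumor libraries far from the rest, and members were measured in the same libraries.

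The tumor libraries differed among themselves. In CPM, LLC tumor 1 was the highest of the 3 for 9 of the 10 members and the lowest for Cd63. On the TMM scale Apoe was at 1208, 647 and 554 in LLC tumor 1 to 3, against 893 to 1078 in healthy blood. Without LLC tumor 1 all 8 calls of a rise from LLC blood to LLC tumor remained. Without LLC tumor 1, the log2 fold change of Apoe from LLC blood to LLC tumor was 0.97.

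Summed markers of stromal and tumor cells were highest in the tumor libraries. The 7 fibroblast markers summed to 6.02 to 16.9 CPM in healthy blood, to 3.67, 4.59 and, in LLC blood 1, 414 CPM, and to 938, 3470.4 and 3929 CPM in LLC tumor 1 to 3, with no marker at 0 in every library of a group and Col3a1 the most abundant in the tumor. LLC blood 1, with its fibroblast sum of 414 CPM, had Spp1 at 9.75, Cd63 at 1.72 and Cd9 at 8.61 CPM, within or below the range of the other blood libraries. Its fibroblast sum was made up differently from that of the tumors. Col1a1, Col3a1 and Dcn were at 212, 57.2 and 4.02 CPM in LLC blood 1, against means of 84.2, 2204 and 228 CPM in LLC tumor. LLC tumor 1, with the lowest fibroblast sum of the tumors, had the highest Spp1 and Cd9 and the lowest Cd63. The 7 markers of carcinoma or epithelial cells summed to 8.15 to 9.79, 3.94 to 6.27 and 63.4 to 102 CPM, with Cldn4 at 0 and Krt19 and Epcam at or under the floor in the tumor. Of the 4 tested, 3 rose from LLC blood to LLC tumor and Krt7 fell (7.04 ± 0.669, 2.57 ± 0.940 and 0.615 ± 0.308 CPM, named after its values were seen). The 6 endothelial markers summed to 5.09 to 6.76, 7.94 to 8.09 and 14.5 to 17.4 CPM, with none at 0 and Emcn at or under the floor in the tumor. The part of these cells in the members' changes was not tested.

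The summed platelet and macrophage markers were highest in the tumor libraries as well, but single markers went different ways. The 7 platelet markers summed to 8.15 to 20.9, 4.73 to 7.82 and 139 to 223 CPM across healthy blood, LLC blood and LLC tumor, carried in the tumor by Pf4 and Ppbp, while the platelet receptor genes Gp9 and Gp6 were at or under the floor there. Of 5 tested, 0 were higher and 1 lower in LLC blood against healthy blood. In LLC tumor against LLC blood 2 were higher and 0 lower, with a median log2 fold change of 0.07. Itga2b (4.05, 1.96 and 1.21 CPM) and Gp1ba (1.06, 0.896 and 0.504 CPM), named after their values were seen, had their lowest means in LLC tumor. Cd9 and Cd63 are also proteins of platelets, and the part of platelets in their change was not tested. The 10 markers of mature macrophages summed to 1159.8 to 1199, 1052 to 1112 and 1550.1 to 2128 CPM. In LLC blood against healthy blood 0 were called higher and 4 lower. In LLC tumor against LLC blood 7 were called higher and 2 lower, with a median log2 fold change of 5.265. Of the 10 markers, the following named after their values were seen, the complement gene C1qa was at 7.42 ± 3.89, 1.76 ± 0.331 and 191 ± 54.3 CPM and the mannose receptor gene Mrc1 at 21.9 ± 4.90, 6.95 ± 1.27 and 391 ± 107 CPM, while the macrophage marker Adgre1 was at 294 ± 4.02, 329 ± 16.3 and 191 ± 24.7 CPM. The 9 neutrophil markers summed to 674 to 900.5, 786 to 1248 and 306 to 534 CPM, with none at 0 in any group, 2 called higher in LLC blood against healthy blood and 4 lower in LLC tumor against LLC blood. Ly6c2, a gene for the sorting marker Ly6C, was at 1669 ± 85.4, 1153 ± 74.3 and 358 ± 103 CPM. The part of such cells in the members' changes was not tested.

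**Figure D5:**
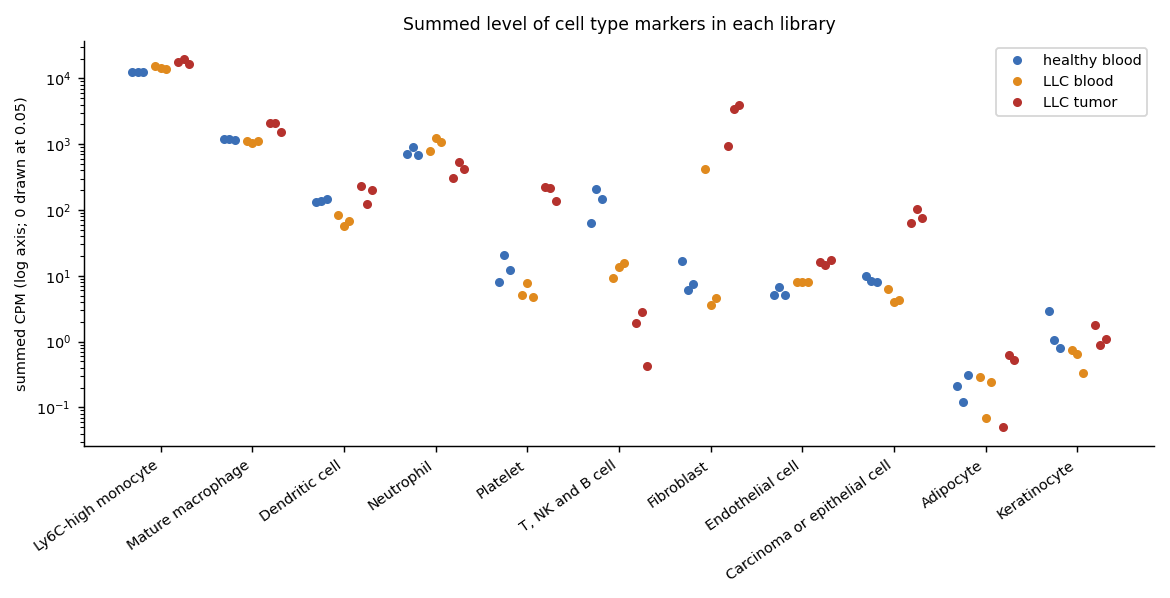
Summed CPM of the marker genes of 11 cell types in each of the 9 libraries, on a log axis, with points of the same group side by side in the order of replicates. Fibroblast markers reached 414 CPM in LLC blood 1 and 938 to 3929 CPM in LLC tumor, and markers of T, NK and B cells were lowest in LLC tumor.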

How the data were processed

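RNA from the sorted cells was sequenced as 9 libraries, 3 per group by their titles; the blood columns of the count table carry the letters BM in their heads, while the titles say blood, and the titles were followed. Another 22 samples of the series were not analysed here. The deposited gene table holds expected counts, estimated by the authors, with the columns matched to samples by name. Per the submitters' processing notes, the tools include Trim Galore 0.6.7, cutadapt 3.4, STAR 2.6.1d, Salmon 1.9.0 and edgeR, on the build mm10; the annotation used for counting is not given in the sources used here. Between 8.56% and 9.73% of the values were not whole, and the expected counts were rounded for the fits. The authors also deposited a CPM table of 10693 genes, used for alternatives; all its values gave whole reads, within 0.01 of a read.

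Levels are CPM over the column total, computed from the expected counts before rounding. All 9 libraries were fitted together in edgeR 4.0.16 (R 4.3.3) by group, with TMM factors, filterByExpr and the quasi-likelihood F test, and p-values were adjusted by Benjamini-Hochberg over 12337 genes. The SE is the log2 fold change divided by the square root of F. The alternatives were other scalings, no filter, the replicate number as a block, the 6 libraries of a comparison alone, each library left out, limma 3.58.1 on counts and on log2(CPM + 1) or log2(CPM + 0.1), DESeq2 1.42.0 and, chosen after seeing the data, edgeR on the whole reads of the CPM table. The fitting script was tested on simulated data.

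The members and gene lists were chosen with earlier results of these data known. All members are named; of each list, up to 4 called genes with the largest change and a mean of at least 20 CPM are named, besides direct partners of the members. Promoter sequences and gene positions are from RefSeq tables (GRCm38.p6), and promoter sequences of Fabp5 and Lpl were not used here. Some genes of the lists enter their counts but are not reported here by name.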

Additional observations from a re-analysis of the deposited data

How the results depend on the processing

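Over 20 alternatives, the number of members called ranged from 3 to 6 in LLC blood against healthy blood (4 as reported), from 8 to 9 in LLC tumor against LLC blood (8) and from 9 to 10 in LLC tumor against healthy blood (9). Scaling by library totals moved the share of all calls that were higher from 48.3% to 36.3% in LLC tumor against LLC blood and from 50.4% to 40.6% against healthy blood, and upper-quartile scaling moved it from 59.4% to 46.3% in LLC blood against healthy blood. With the replicate number as a block, 5, 8 and 9 members were called, Fabp5 being gained in LLC blood (log2 fold change 0.57, adjusted p 0.0498). Among the named partners, the block ended the call of Apoc1 in LLC blood against healthy blood (-0.80, adjusted p 0.0562) and gave one for Abcg1 in LLC tumor against LLC blood (0.57, adjusted p 0.0216). To look for pairing, each gene's group mean was taken off its log2(CPM + 1), for genes that averaged 20 CPM or more. What was left correlated between same-numbered libraries at -0.01 to 0.32, -0.14 to 0.19 and -0.09 to 0.01 in the 3 comparisons. In these, 2, 1 and 0 of 3 libraries correlated best with their own number, so the numbers were not taken to pair the samples.

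The sign turned for values that were not called. In LLC blood against healthy blood, the log2 fold change over the fits without 1 library ranged from -0.86 to 0.31 for Spp1 and from -0.84 to 0.19 for Cd63, the upper ends without healthy blood 1, and from -0.166 to 0.0271 for Plin2, the upper end without LLC blood 1. In LLC tumor against LLC blood, that of Apoc2 ranged from -0.56 to 0.0894, being 0.06 without LLC tumor 2 and highest without LLC tumor 3. With library totals, limma on log2(CPM + 1) and limma on log2(CPM + 0.1), Dgat2 had -0.0222, -0.0244 and -0.0246, Soat1 had -0.0816, -0.10 and -0.10, and Tfe3 had -0.0484, -0.0619 and -0.0624. In LLC tumor against healthy blood, Cd36 had -0.0755 with library totals, -0.15 and -0.16 with limma on these scales, and -0.20 (without LLC tumor 1) to 0.38 (without LLC tumor 3) over the fits without 1 library. The cause was not tested. Cidec and Gpihbp1, with at most 1 and 5 counts in any library, did not pass the filter on low counts.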
